A study of Mus musculus with 8 samples.

Results

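The annexins are proteins that bind membrane phospholipids in the presence of calcium through a conserved repeat core, and they differ mainly in the tail that precedes that core. They take part in membrane repair, vesicle traffic and the handling of dying cells, and in blood cells Anxa1 and Anxa3 are best known from neutrophils and other myeloid cells. Anxa1 is also known as a mediator that limits inflammation and as a target of glucocorticoid hormones. RNA levels of 8 annexin genes, Anxa1, Anxa2, Anxa3, Anxa4, Anxa5, Anxa6, Anxa7 and Anxa11, were followed here. The family was chosen from the high signal of Anxa1 in tumors, which was uneven between arrays, so the values of Anxa1 are a description and carry no test. The other genes were taken by their symbols. They were measured by 15 of the 22690 probe sets, out of 12393 genes with a probe set of their own.

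The cells were FL5.12 cells, a mouse line described as pro-B cells and grown with a source of IL-3. All of the material carried the same stable transfection with Bfl-1DC and p53DD. The parental cells in culture made up 1 group, with 2 arrays. The other groups were tumors 1, 2 and 3, each from the spleen of a different nude mouse that had received these cells into a vein, with 2 arrays for each tumor. The labels give neither the background strain and age of the mice nor the time to tumor. They do not say whether the line was a clone, and list the same culture conditions for tumors as for parental cells. They do not say whether the duplicate arrays came from separate cultures or extractions, so the spread between duplicates may be technical. All p-values measure only the spread between these samples. In the main test of tumors against parental cells that is the spread among tumors of 3 mice and between 2 parental arrays. Nude mice lack T cells that mature in the thymus but keep B cells, natural killer cells and myeloid cells.

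The 8 arrays had median signals of 32.4 to 37.9, and duplicate arrays correlated at 0.951 to 0.972 across genes, which are not independent replicates. The number of arrays limits the precision. Of the fixed pro-B markers, Vpreb1, Ebf1, Rag1, Rag2 and Dntt stayed below the 40th percentile of every array (15.6 to 20.7), while Cd79a and Cd79b lay above it on all 8. Cd79a was at 87.7 and 95.2 in parental cells and 128 to 277 in tumors (log2 difference 0.97, adjusted p by limma 0.146). Cd79b was at 109 and 77.6 in parental cells and 209 to 298 in tumors (1.31, adjusted p 0.0412). Signal in this bulk RNA cannot tell fewer cells of a type from less RNA per cell.

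The RefSeq promoter table (GRCm38.p6) held 6 of the 8 genes. The 250 bases before the start site are shown for the gene with the largest difference between tumors and parental cells, for the gene that differed among the tumors and for a gene that differed between duplicate arrays. Capitals mark motif matches on either strand. The TATA box, a start-site element, was searched as TATAAA and the GC box, bound by Sp1, as GGGCGG. The CAAT-type promoter element was searched as CCAAT, and the core bound by the myeloid factor PU.1 as GAGGAA. No matches overlap in these windows.
Anxa1: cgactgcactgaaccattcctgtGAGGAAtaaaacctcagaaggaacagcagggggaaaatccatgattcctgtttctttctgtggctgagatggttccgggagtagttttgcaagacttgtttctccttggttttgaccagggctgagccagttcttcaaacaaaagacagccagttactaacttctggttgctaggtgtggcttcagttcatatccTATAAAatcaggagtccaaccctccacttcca
Anxa2: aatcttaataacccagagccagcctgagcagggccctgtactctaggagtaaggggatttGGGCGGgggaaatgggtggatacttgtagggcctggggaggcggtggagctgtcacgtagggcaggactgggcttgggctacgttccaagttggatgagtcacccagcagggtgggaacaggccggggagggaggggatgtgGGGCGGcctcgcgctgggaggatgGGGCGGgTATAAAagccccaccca
Anxa5: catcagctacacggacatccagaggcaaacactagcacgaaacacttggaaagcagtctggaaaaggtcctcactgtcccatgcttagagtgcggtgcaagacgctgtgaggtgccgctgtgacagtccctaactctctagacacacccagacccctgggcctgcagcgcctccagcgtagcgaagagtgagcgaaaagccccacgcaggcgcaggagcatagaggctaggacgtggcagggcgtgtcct
They run 5′ to 3′ and lie at chr19:20390672-20390921 on the minus strand, chr9:69453433-69453682 on the plus strand and chr3:36475888-36476137 on the minus strand. A TATAAA match began at position -32 from the start site in Anxa1 and at position -17 in Anxa2, and there was none in the windows of Anxa4, Anxa5, Anxa7 and Anxa11. Of 32851 promoter windows of this length 12.4% held that motif, 32.7% the GC box, 33.8% the CAAT-type element and 23.3% the PU.1 core. Anxa1 had 1 PU.1 core match and no GC box, Anxa2 had 3 GC boxes, and Anxa5 had none of the 4 motifs. Of the windows not printed, that of Anxa11 also held 1 PU.1 core match, and those of Anxa4 and Anxa7 held none. The GC content of the windows was 46% for Anxa1, 62.4% for Anxa2 and 58.8% for Anxa5. These matches describe the sequence and mark no measured site.

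Anxa1 was far higher in every tumor than in the parental cells. Its signal was 14.1 and 105 on the parental arrays, 1749 and 6415 for tumor 1, 552 and 1404 for tumor 2, and 1528 and 2504 for tumor 3. All 6 tumor arrays lay above both parental arrays, and tumor 1 was highest and tumor 2 lowest on each array number. The parental arrays differed from each other by 7.42 times, and the lower of them was under the 40th percentile of its array. Parental cells averaged 59.5 ± 64.1 (SD, n = 2 arrays), and the tumors averaged 2359 ± 1580 (SD, n = 3). On the scale of log2(signal + 16), which understates changes of low signals, the tumors lay 4.91 ± 0.71 (SE) above the parental cells, at 5.80, 3.90 and 5.03 in tumors 1, 2 and 3. The difference was 3.91 against the second parental array alone and 5.91 against the first. Among first arrays it was 5.26 and among second arrays 4.56.

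**Figure D1:**
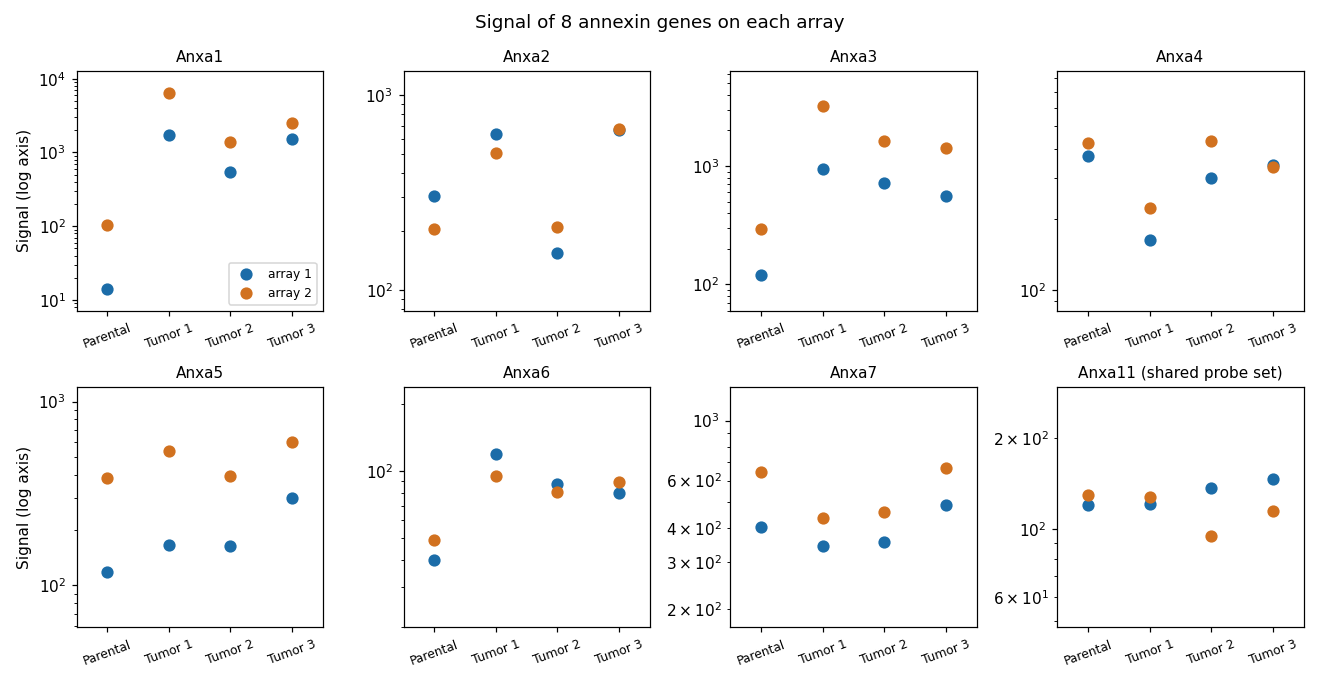
Signal of each annexin gene (log axis, a scale of its own in each panel) on the first array (blue) and the second array (orange) of parental cells and of tumors 1, 2 and 3. Anxa1, Anxa3 and Anxa6 have all 6 tumor arrays above both parental arrays, Anxa2 is low in tumor 2, and Anxa5 is higher on every second array than on any first array.

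Anxa3, an annexin abundant in neutrophils, had the next largest difference. Its signal was 119 and 294 on the parental arrays, 947 and 3196 for tumor 1, 719 and 1624 for tumor 2, and 562 and 1417 for tumor 3. All 6 tumor arrays again lay above both parental arrays, with tumor 1 highest. The mean went from 207 ± 124 (SD, n = 2) to 1411 ± 579 (SD, n = 3), a log2 difference of 2.56 ± 0.41 (SE). Its adjusted p by limma over 8535 genes was 0.0567, just short of the threshold of 0.05. With the replicate number as a block the adjusted p was 0.00787, in a fit that counts the duplicate arrays of a tumor as separate samples. The difference was 2.46 among first arrays and 2.66 among second arrays, and it was 1.96 without parental array 1 and 3.16 without parental array 2.

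Anxa6, whose protein carries a duplicated core and binds the Ras inhibitor encoded by Rasa1, was moderately higher in tumors. Its signal was 39.7 and 49.2 on the parental arrays, 119 and 94.7 for tumor 1, 87.4 and 80.3 for tumor 2, and 79.6 and 88.9 for tumor 3. No tumor array reached down to the parental ones, and tumor 1 was highest on both of its arrays. The log2 difference was 0.83 ± 0.18 (SE), with an adjusted p by limma of 0.104, or 0.0369 with the replicate block. The block fit counts the duplicate arrays of a tumor as separate samples. A dimmer probe set of Anxa6 gave the same difference, 0.83 ± 0.18 (SE), from signals of 23.0 and 35.2 in parental cells against 56.4 to 75.7 in tumors, and its adjusted p in the fit of every probe set was 0.122, or 0.0299 with the replicate block. The third Anxa6 probe set was at or below 11.2 on every array and did not pass the filter.

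Of the 6 genes other than Anxa1 in the fit of genes, 0 passed at an adjusted p of 0.05 by limma, and 2, Anxa3 and Anxa6, had an unadjusted p below 0.05. With the replicate block, in a fit that counts the duplicate arrays of a tumor as separate samples, Anxa3 and Anxa6 passed, both higher in tumors. Over all genes 66 of 8535 passed without the block (0.773%), 51 higher (0.598%) and 15 lower (0.176%). An unadjusted p below 0.05 was found for 16.4% of all genes (9.77% higher), and 4.10% passed with the replicate block (2.47% higher). In the fit of every probe set 0.698% passed, and no probe set of these 6 genes or of Anxa11 was among them. With each array centred on its median, the median over all genes moved by -0.11, and 48 genes were higher and 27 lower. Without parental array 1 the count was 17, and without parental array 2 it was 13. A complete separation of tumor arrays above parental arrays was found for 2 of the 6 genes, Anxa3 and Anxa6, and for 10.3% of all genes. The reverse was found for 8.28% of all genes and for none of the annexins. Anxa1 had the separation too, but it was chosen for its high signal in tumors and is not counted here. Of the 6 genes 4 lay above 0, against 52.9% of all genes, and their median difference was 0.61, against 0.02 over all genes.

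**Figure D2:**
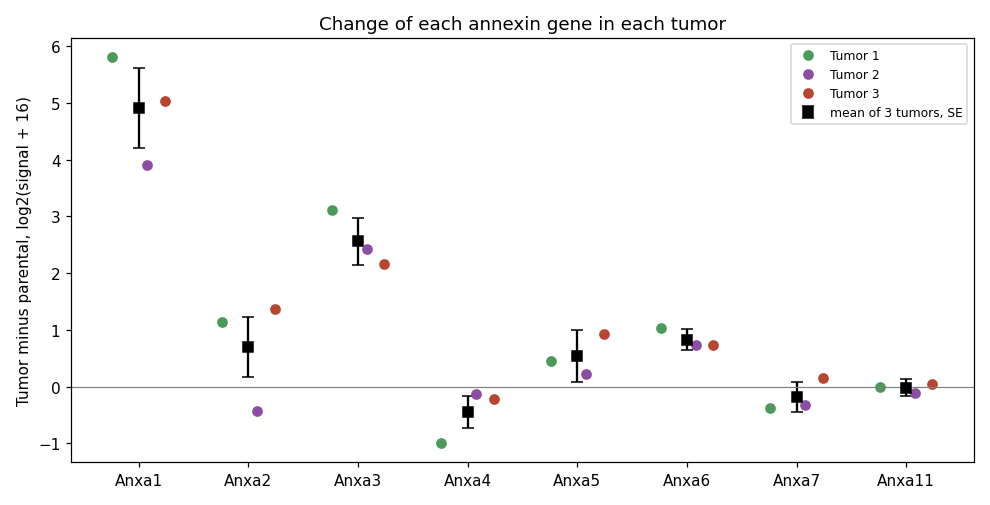
Difference of each tumor from the parental mean (coloured points) and the mean of the 3 tumors with its SE (black squares), in log2(signal + 16), for each annexin gene. Anxa1 lies at 4.91 and Anxa3 at 2.56, while Anxa2 lies above 0 in tumors 1 and 3 and below 0 in tumor 2.

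Anxa2, which joins with S100a10 into a complex that binds plasminogen at the cell surface, separated the tumors from each other. Its signal was 303 and 204 on the parental arrays, 635 and 504 for tumor 1, 155 and 210 for tumor 2, and 662 and 670 for tumor 3. Tumors 1 and 3 lay above both parental arrays, and tumor 2 lay near or below them. The gap between the highest and the lowest tumor was 1.79 on the log2 scale, and limma's F test over the 3 tumors gave an adjusted p of 0.0233. Against parental cells the mean difference was 0.69 ± 0.53 (SE, adjusted p by limma 0.557), at 1.13, -0.43 and 1.36 in tumors 1, 2 and 3.

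A second probe set of Anxa2 was dimmer, at 46.0 and 29.0 in parental cells, 63.3 and 48.4 for tumor 1, 20.6 and 11.2 for tumor 2, and 47.3 and 50.4 for tumor 3. It put the same tumor lowest, with a gap of 1.18 and an adjusted p of 0.105 in the F test of every probe set, which 1.26% passed. Its mean difference from parental cells was near 0 (-0.0038), and 1 further probe set of the gene did not exceed the 40th percentile on any array. The spread behind the F test is that between duplicate arrays. The call of Anxa2 was lost without either array of tumor 2 (adjusted p 0.145 and 0.0643), without either array of tumor 3 (0.106 and 0.108) and with a pseudocount of 1 (0.0611).

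**Figure D3:**
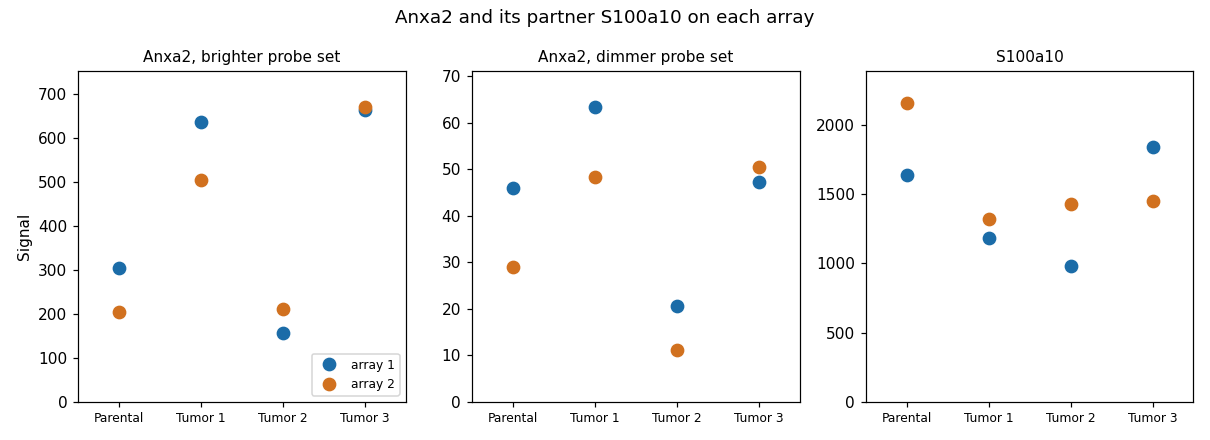
Signal of both measured Anxa2 probe sets and of S100a10 (linear axes from 0) on the first (blue) and second (orange) array of each source. The Anxa2 probe sets are lowest in tumor 2, and S100a10 is 977 and 1427 there.

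S100a10, the partner of Anxa2, did not set tumor 2 apart in the same way. Its signal was 1640 and 2153 in parental cells, 1180 and 1321 for tumor 1, 977 and 1427 for tumor 2, and 1842 and 1446 for tumor 3, so that tumors 1 and 2 overlapped and tumor 3 lay just above them. The F test over the tumors gave an adjusted p of 0.693, and the difference from parental cells was -0.48 (adjusted p by limma 0.328). S100a10 was singled out for its role after the values were seen.

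Of the 6 genes, Anxa2 was the 1 called among the tumors, where 1.62% of all genes passed the F test and 12.6% had an unadjusted p below 0.05. Anxa4, a membrane-binding annexin best known from epithelia, had an unadjusted p below 0.05 there and an adjusted p of 0.208. Its signal was 372 and 424 in parental cells, 163 and 223 for tumor 1, 301 and 430 for tumor 2, and 342 and 334 for tumor 3. Tumor 1 lay below all other samples. On a second probe set its arrays gave 97.2 and 188 against 176 to 297 elsewhere, so that its second array overlapped the others. The differences from parental cells were -0.45 ± 0.28 and -0.33 ± 0.28 (SE) for these probe sets, with adjusted p by limma of 0.477 and 0.611. With the replicate block the F test gave 0.0439 for Anxa4 and 0.0462 for Anxa3, for which it was 0.836 without the block. With the block 551 of 8535 genes passed the F test, against 138 without it.

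Anxa5, the phosphatidylserine-binding protein used as a stain for dying cells, differed more between the array numbers than between tumors and parental cells. The first arrays gave 118 in parental cells and 167, 163 and 298 in tumors 1, 2 and 3, and the second arrays gave 386, 537, 393 and 600.5. Every second array lay above every first array. The second arrays exceeded the first by 1.58 in parental cells and by 1.60, 1.19 and 0.97 in the tumors on the log2 scale. The mean of these was 1.34 ± 0.14 (SE), with an adjusted p by limma of 0.00915 in a fit with a mean per source. Tumors differed from parental cells by 0.53 ± 0.46 (SE, adjusted p by limma 0.603, or 0.276 with the replicate block). Within array numbers every tumor lay above the parental array, by 0.44, 0.42 and 1.23 on the first arrays and by 0.46, 0.024 and 0.62 on the second. The difference was -0.26 when parental array 1 was left out, which sets first arrays of tumors against a second parental array.

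Anxa3 shared this difference between duplicate arrays, at 1.20 in parental cells and 1.74, 1.16 and 1.31 in the tumors (mean 1.35 ± 0.13 (SE), adjusted p by limma 0.00817). Anxa7, a synexin that binds the calcium protein sorcin, had a smaller difference, at 0.66, 0.34, 0.35 and 0.44 (mean 0.44 ± 0.10 (SE), adjusted p 0.0334). For Anxa1 the second array exceeded the first by 2.00 in parental cells and by 1.87, 1.32 and 0.71 in the tumors. These 4 genes had the second array higher in all 4 sources, and the probe sets chosen for Anxa2, Anxa4 and Anxa6 did not. The share of all genes with that pattern was not counted, and Anxa1 was chosen partly for its unevenness between arrays. The other probe sets of Anxa7 gave -0.11 and -0.079 with mixed signs, and the second probe set of Anxa4 gave 0.63 (adjusted p 0.0146 in the fit of every probe set) with the second array higher in all sources. Of the 6 genes other than Anxa1, 3 passed this test. Over all genes 15.7% passed in either direction and 7.86% with the second arrays higher. A stricter pattern, every second array above every first, was met by Anxa5 alone of these 4 genes. It was found for 6.39% of all genes, and the reverse for 7.07%. The comparison was chosen after seeing the data, and what set the array numbers apart is not in the labels.

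**Figure D4:**
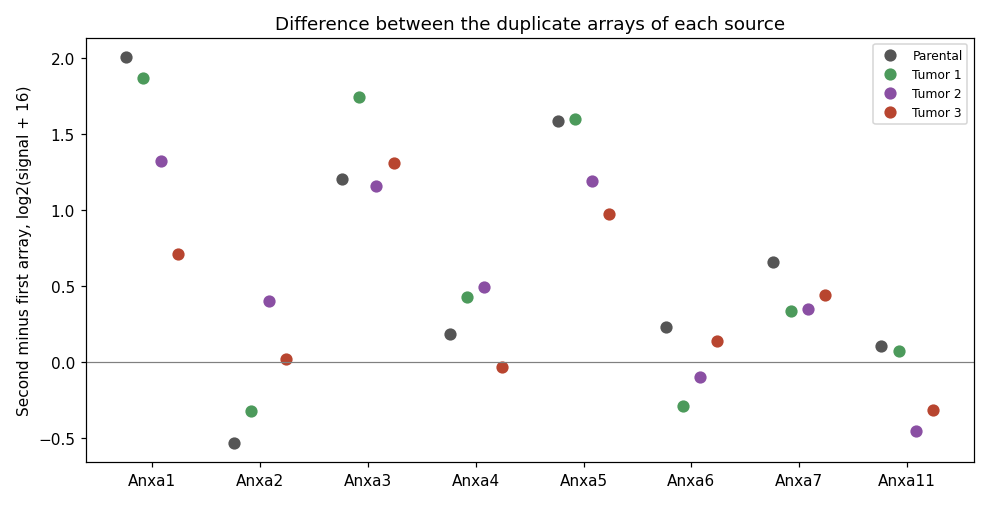
Second array minus first array in log2(signal + 16) for each annexin gene, with 1 point for parental cells (grey) and for each tumor. Anxa1, Anxa3, Anxa5 and Anxa7 lie above 0 in every source, and Anxa5 lies between 0.97 and 1.60.

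Anxa7 and Anxa11 were the most even members. The brightest Anxa7 probe set stood at 404 and 645 in parental cells and between 343 and 666 in tumors, with a difference of -0.19 ± 0.26 (SE, adjusted p by limma 0.764), and its 2 other probe sets gave -0.099 and -0.18. Anxa11, which binds the calcium protein encoded by Pdcd6, is covered by a probe set that the annotation shares with Gm2260 and Gm2274, so its signal could be that of any of them. It lay between 95.2 and 147 on all 8 arrays and differed by -0.023 ± 0.15 (SE), with an adjusted p of 0.964 in the fit of every probe set.

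The other annexins on the array were mostly dark. Anxa8, Anxa10 and Anxa13 did not exceed the 40th percentile on any array. Anxa9, an annexin that lacks the usual calcium-binding sites, was at 115 and 106 in parental cells, 51.6 and 31.9 for tumor 1, 86.8 and 43.9 for tumor 2, and 109 and 103 for tumor 3. Tumor 1 and tumor 2 lay below the parental arrays and tumor 3 beside them, with a mean difference of -0.63 (adjusted p by limma 0.373) and an F test over tumors of 0.234.

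Of 11 annexin binding partners 9 were measured, and 0 passed by limma either way or had an unadjusted p below 0.05. Their median was -0.29 against 0.02 over all genes, with 7 below 0. S100a4, a calcium-binding motility protein, was at 1587 and 3015 in parental cells, 7.69 and 51.4 for tumor 1, 43.3 and 145 for tumor 2, and 1252 and 2647 for tumor 3. Tumors 1 and 2 lay far below parental cells and tumor 3 did not, with a gap of 5.52 and an F test adjusted p of 0.0140. This is another pattern than that of Anxa2, which was lowest in tumor 2 alone. Trpm7, an ion channel kinase that phosphorylates Anxa1, differed by -0.40 (adjusted p 0.309). Pdcd6 (-0.031) and Sri, which encodes sorcin (-0.026), were close to even.

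The receptors of Anxa1 and the eicosanoid pathway that it restrains were represented by 7 measured genes of 14, of which 0 passed by limma and 1 had an unadjusted p below 0.05. Their median was 0.092, with 5 above 0. Fpr2, a formyl peptide receptor that Anxa1 binds, stayed at 1.94 to 28.2 on all arrays (0.070, adjusted p 0.915). Pla2g4a, the phospholipase that releases arachidonic acid, was at 305 and 290 in parental cells and at 147 to 297 in tumors (-0.43, adjusted p 0.297). Alox15, a lipoxygenase of eosinophils and macrophages, was at 1.47 and 2.14 in parental cells, 64.2 and 293 for tumor 1, 4.28 and 12.4 for tumor 2, and 15.9 and 44.9 for tumor 3 (1.63, adjusted p 0.322). Tumor 1 was highest and tumor 2 lowest, as for Anxa1.

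Among 9 measured glucocorticoid-responsive genes 1 passed and it fell, and 7 lay below 0, with a median of -0.39. Klf9, a zinc-finger factor induced by glucocorticoids, went from 120 and 176 to between 1.21 and 12.6 on the tumor arrays (-2.97 ± 0.20 (SE), adjusted p by limma 0.00243). Tsc22d3 and Fkbp5, which glucocorticoids also induce, differed by -0.064 and -0.17, and Nr3c1, the receptor, by -0.42 (adjusted p 0.335). Cebpd, a transcription factor of myeloid cells that glucocorticoids also induce, differed by 0.66 (adjusted p 0.334).

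Of 13 measured genes of plasma membrane repair 0 passed by limma, 1 had an unadjusted p below 0.05 and the median was 0.011. Pdcd6ip, an adaptor of membrane scission, differed by 0.53 (adjusted p 0.284) and the protease gene Capn1 by -0.44 (0.346). Of 10 genes of phosphatidylserine exposure and recognition 0 passed and 3 had an unadjusted p below 0.05, with a median of 0.20 and 8 above 0. Stab2, a receptor for phosphatidylserine, differed by 0.53 (adjusted p 0.160), and Tmem30a, a subunit of lipid flippases, by 0.49 (0.254). In plasminogen activation 1 gene of 8 was measured. Plaur, the urokinase receptor, was at 20.1 and 11.4 in parental cells, 21.3 and 424 for tumor 1, 29.9 and 142 for tumor 2, and 28.9 and 75.0 for tumor 3 (1.50 on the log2 scale, adjusted p by limma 0.101). The first tumor arrays were close to the parental ones and the second were not.

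Most tested marker genes of eosinophils, neutrophils and macrophages had more signal on the tumor arrays, as Anxa1 and Anxa3 did. The summed signal of the eosinophil list, with 5 of 9 genes on the array, was 30.9 and 27.1 in parental cells and 3620 to 8141 in tumors, with 2 of its 3 tested genes higher by limma and Il5ra and Ccr3 below the 40th percentile throughout. That of the neutrophil list, with 13 of 14 genes, was 842 and 334 against 4179 to 10593, with all 11 tested genes above 0, 2 of them higher by limma, and Camp below the percentile. That of the macrophage and monocyte list, with 13 of 14 genes, was 661 and 2803 against 2683 to 8365, so that the groups overlapped. Of its 9 tested genes 8 lay above 0 and 4 were higher by limma, and C1qa and Ms4a7 stayed below the percentile. Csf1r went the other way, at 11.5 and 555 in parental cells and 19.1 to 243 in tumors (-0.65, adjusted p by limma 0.817). Fcgr3 differed little, at 430 and 1722 in parental cells and 211 to 2362 in tumors (0.19, adjusted p 0.916). From first to second array the neutrophil sum went from 4179 to 10593 in tumor 1, from 4958 to 5854 in tumor 2 and from 4817 to 8837 in tumor 3, and from 842 to 334 in parental cells. The parental difference was that of Prtn3, a granule protease gene (725 and 162). Without it, a sum formed after seeing the data was 118 and 171 in parental cells and 2716 to 9502 in tumors. Its direction in parental cells was set by leaving Prtn3 out, so it is a description only. The brightest neutrophil gene, Mpo, the peroxidase of neutrophil granules, was at 12.1 and 16.4 in parental cells and 1560 to 3401 in tumors (6.19, adjusted p by limma 0.000191). Mpo was lower on the second array in tumors 1 (1802 and 1578) and 2 (2727 and 2669), and higher in tumor 3 and parental cells. Epx, the eosinophil peroxidase, was at 9.21 and 9.34 against 2614 to 4607 (7.05, adjusted p 5.2e-05). The order of Anxa1, with tumor 1 highest and tumor 2 lowest on both array numbers, was shared by Epx among the 3 tested eosinophil genes. Among the 11 tested neutrophil genes S100a8 and S100a9 shared it, and among the 9 tested macrophage and monocyte genes Adgre1 and Itgam. The share of all genes with that order was not counted. The mast cell and basophil list was at 962 and 4065 in parental cells and 2093 to 10292 in tumors, with its high end in tumor 1. The T cell list was at 85.2 and 74.0 in parental cells and 875 to 2600 in tumors, with Cd3e, Cd4, Cd8b1 and Thy1 below the percentile on every array. The part of these cell types in the annexin values was not tested.

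By the root mean square difference of centred log2(signal + 16) over the 8 arrays, the profile nearest to Anxa1 was that of Ifitm6 (0.71), a membrane protein gene of the interferon-induced family, followed by Lgals3 (0.84), Cd3d (0.86), Fbp2 (0.86) and Ngp (0.86). Ifitm6 was at 50.9 and 59.8 in parental cells, 1442 and 3764 for tumor 1, 317 and 591 for tumor 2, and 710 and 1242 for tumor 3. It had the same order of sources as Anxa1, but its parental arrays were nearly alike. Lgals3, a galectin of macrophages, shared the difference between parental arrays (56.5 and 192). For comparison, Anxa1 itself ranged over 7.74 log2 units.

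**Figure D5:**
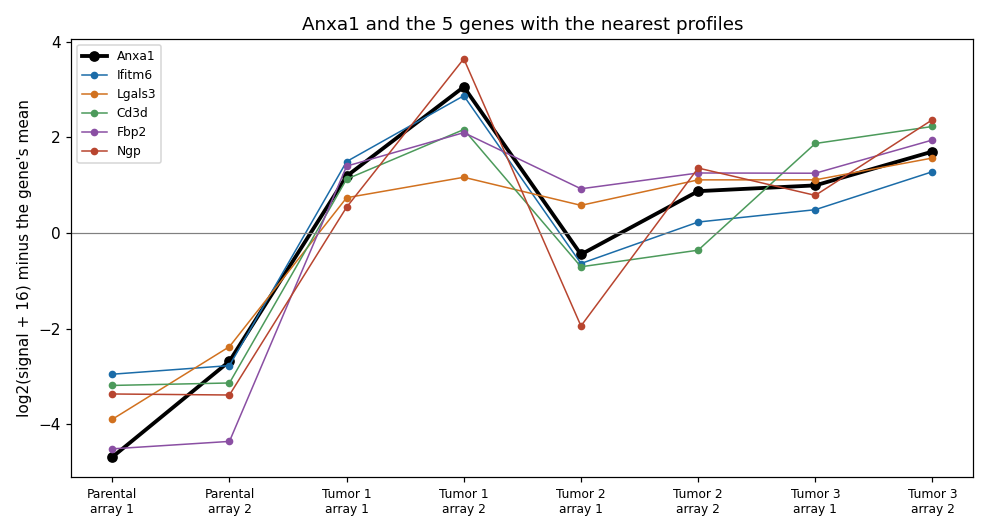
Centred log2(signal + 16) of Anxa1 (black) and the 5 genes with the nearest profiles on the 8 arrays. All lie below 0 on the parental arrays, and Anxa1 spans 7.74 log2 units.

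Nearest to Anxa3 were Glipr1 (0.49), the chemokine gene Ccl9 (0.51) and the integrin gene Itgam (0.53), and all of these were higher on the second than on the first array of every tumor. Glipr1 was at 270 and 637 in parental cells, 824 and 2699 for tumor 1, 801 and 2070 for tumor 2, and 1002 and 2205 for tumor 3, which repeats the step between arrays but not the lead of tumor 1 on first arrays. Nearest to Anxa5 were Mgst3 (0.24), Il10rb (0.26) and Sgpl1 (0.29). Their differences between tumors and parental cells were 0.13, 0.47 and 0.25, and each had a higher second array in all sources. The 8 arrays share scaling, sources and array numbers, so these distances are descriptions.

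In the gene order of the RefSeq table, Anxa1 lies on chromosome 19, Anxa2 on 9, Anxa3 on 5, Anxa4 on 6, Anxa5 on 3, Anxa6 on 11, and Anxa7 and Anxa11 on 14. The median difference of the 326 measured genes of chromosome 19 was -0.35, and Anxa1 stood at 5.26 with chromosome medians removed. That of the 469 measured genes of chromosome 9 was 0.31, and Anxa2 went from 0.69 to 0.38 with chromosome medians removed. The medians of the other members' chromosomes ran from -0.020 to 0.043. Of the 16 nearest measured neighbours of the 8 genes, 1 on each side, 0 passed by limma, and 2 differed by more than 1 on the log2 scale. The first was Aldh1a1, next to Anxa1, which encodes a retinal dehydrogenase. It was at 1.42 and 20.0 in parental cells, 66.5 and 216 for tumor 1, 1017 and 1278 for tumor 2, and 1435 and 1925 for tumor 3. Its difference was 4.69 ± 1.02 (SE, adjusted p by limma 0.107), but it was lowest in tumor 1, where Anxa1 was highest, and the F test over tumors gave an adjusted p of 0.0267. The neighbour on the other side of Anxa1, Trpm6, differed by 0.45. The second was Gm2a, a lysosomal lipid-binding protein gene next to Anxa6, at 1.22 (adjusted p 0.0815). Bmp2k and Mrpl1 beside Anxa3 differed by -0.34 and -0.17. The neighbours were looked up after the members' values were seen, and the share of all genes differing by more than 1 was not counted.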

How the data were processed

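Each deposited value is a probe set's signal intensity on a linear scale, which the authors made with MAS5 per the submitters' processing notes. No version is stated there. Arrays had been scaled, since their trimmed means (2% off each end) were all 150.06. The platform annotation named the probe sets, with symbols updated by gene ID to RefSeq (GRCm38.p6). Of 22690 probe sets 20380 had 1 symbol, 691 several and 1555 none, 64 controls were left out, and 20351 matched by gene ID.

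From the intensities log2(signal + 16) was computed. A probe set was kept where it exceeded the 40th percentile of its array (15.6 to 20.7) on at least 2 arrays, which kept 13 of the 15 annexin probe sets. A gene took its probe set with the highest mean (8535 genes). Limma 3.58.1 in R 4.3.3 compared 3 tumors, each the mean of its 2 arrays, with 2 parental arrays, two-sided, with Benjamini-Hochberg adjustment over all genes at 0.05. An F test over the tumors used all 8 arrays with a mean per source and 4 residual degrees of freedom. Every probe set, also those with several symbols, was fitted in a separate run. The fits were tested on simulated data.

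Array numbers 1 and 2 come from the labels. Same-numbered arrays deviated together from their source means (r of 0.400 to 0.595 across genes, in 6 of 6 source pairs). The numbers were therefore taken as pairing, and a replicate block was also fitted. For tumors against parental cells that fit counts the duplicate arrays of a tumor as separate samples. Named genes were the 8 members, the genes past the threshold or else the 2 with the lowest p of each pathway list, leading markers, and the nearest profiles (5 for Anxa1, 3 each for the 2 other members of widest range). Other genes were named for their role. Members and lists were chosen with earlier results of these data known.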

Additional observations from a re-analysis of the deposited data

Results flagged for a closer look

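The difference among the 3 tumors passed limma's F test for Anxa2 and for 3 further genes named in the text, with the spread between duplicate arrays as the error. For Anxa2 the highest and the lowest tumor were 1.79 apart on the log2 scale (adjusted p 0.0233), with tumor 2 lowest on both measured probe sets. S100a4 was 5.52 apart (adjusted p 0.0140), with tumors 1 and 2 low and tumor 3 near the parental level. Cd3d, among the nearest profiles of Anxa1, was 2.58 apart (adjusted p 0.0178), with tumor 2 lowest at 82.0 and 109. Cd3d was taken for its likeness over these same arrays to Anxa1, which is itself lowest in tumor 2. Its pass was therefore partly set by that choice and is a description only. Aldh1a1, the neighbour of Anxa1, was 3.60 apart (adjusted p 0.0267), with tumor 1 lowest. The tumors share their parental controls, so these gaps are also the gaps between their changes from parental cells.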

How the results depend on the processing

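The count of 66 genes that differed between tumors and parental cells was 33 with a pseudocount of 64, 26 with no filter, 104 with every probe set on its own, 350 with the replicate block, 41 on the first and 118 on the second tumor arrays, and 13 to 73 with 1 sample left out. Within array number 1 it was 5 and within number 2 it was 12, comparisons added after seeing the data in which the spread of the single parental array is taken from that of the tumors. Of the 6 annexins other than Anxa1, 2 passed with the replicate block, 1 on the second tumor arrays (Anxa3, adjusted p 0.0296) and 0 under the 19 other alternatives. Over the alternatives the adjusted p of Anxa3 ran from 0.00787 to 0.259 and that of Anxa6 from 0.0369 to 0.45. The difference of Anxa1 was 4.03 with a pseudocount of 64 and 3.91 to 5.91 with 1 sample left out. The count of 138 genes that differed among tumors was 72 with a pseudocount of 1, 79 with no filter, 551 with the replicate block and 37 to 99 with 1 array left out. Of the annexins 0 passed with a pseudocount of 1, 0 without the probe set types that may cross-hybridise (which leaves Anxa2 unmeasured), 3 with the replicate block and 0 to 1 with 1 array left out. The difference of Anxa5 turned to -0.095 with the first tumor arrays against both parental arrays, but was 0.70 within array number 1, and ran from -0.26 to 1.32 with 1 sample left out, and that of Anxa7 ran from -0.52 to 0.14. That of Anxa11, near 0, turned to 0.094 on the first tumor arrays and 0.14 within array number 1, and ran from -0.073 to 0.028 with 1 sample left out. Anxa2, Anxa3, Anxa4 and Anxa6 kept their direction under all alternatives that measured them. For Anxa2 in the fit of every probe set this holds for the brighter probe set, while the dimmer one was near 0 (-0.0038). With the replicate block the second Anxa6 probe set passed too (0.0299), and no other annexin call changed than those given here and in the text. The cause of these shifts was not tested. Probe sets near the 40th percentile, such as Anxa1 on the first parental array, limit how well a fold change is known.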
